A study of Rattus norvegicus with 6 samples.

Results

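The molecules described here are miRNA reads that end in a U which the hairpin does not encode. They were taken from tag tables of small RNA libraries, in which each distinct read sequence, called a tag, is aligned to a miRNA hairpin and given a count. A tag was chosen when its hairpin was annotated rather than predicted, its alignment held a single substitution, that substitution lay at the last base, and the base read there was T (U in the RNA). By this rule 487 distinct sequences were found on 174 of the 362 annotated arms listed, with 123848 counts, out of 9522 distinct sequences in the whole series. The values below concern the 58 arms with at least 100 counts in every library, 36 on the 5p side and 22 on the 3p side of their hairpins. These held 251 of the U tag sequences and 102588 of their counts, and the 304 arms below that depth held 17.2% of U tag counts. For each arm and library the U share is the percentage of all counts of the arm that U tags made up. Of the 58 arms, 7 had no U tag in any library.

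The cells were RSC96, an immortalised Schwann cell line from rat, kept for 48 h in high glucose or, as the control, in low glucose. Each condition had 3 libraries, and no other agent or allele is named in the labels. The series title concerns exosomes, whereas the sample labels give total RNA and a nerve source and do not say whether vesicles or whole cells were used, and the extraction text speaks of retina. RSC96 is a single line, and nothing says that the libraries came from separate cultures, so a p-value here reflects variation among 6 libraries that could be technical. Summed levels of 3 retina-enriched miRNAs were 16.4 to 65.4 CPM (counts scaled to each library's total) in high glucose and 40.4 to 105 in the controls. Total counts were 963706, 1278405 and 1354456 in high glucose and 123716, 148143 and 114615 in the controls, so most control shares rest on fewer reads. The 58 arms held 94.6% to 97.4% of the annotated counts of each library.

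Terminal uridylyltransferases, among them TUT4 and TUT7, add U to the 3′ ends of miRNA precursors and of mature miRNAs. The 3′ end of a precursor becomes the 3′ end of the 3p arm, whereas the 3′ end of a 5p arm is made when Dicer cuts, so a U there would be added after that cut. Short U tails can help Dicer process some let-7 precursors, and long ones, placed with the help of LIN28, mark them for decay by the exonuclease DIS3L2. A U on a mature strand leaves the seed, the stretch at bases 2 to 8 that pairs with targets, as it was.

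The main U tags of 7 arms are shown first: the 5 with the highest mean U shares, and miR-27a-3p and miR-100-5p, which are set against family members below. Each is followed by the hairpin stretch it aligned to. The capital marks the added U, written as T, and the base that the hairpin holds in its place.
miR-125b-3p U tag: acgggttaggctcttgggagT
miR-125b-3p hairpin: acgggttaggctcttgggagC
miR-152-3p U tag: tcagtgcatgacagaacttggT
miR-152-3p hairpin: tcagtgcatgacagaacttggG
miR-351-5p U tag: tccctgaggagccctttgagcctgT
miR-351-5p hairpin: tccctgaggagccctttgagcctgA
miR-221-3p U tag: agctacattgtctgctgggtttcT
miR-221-3p hairpin: agctacattgtctgctgggtttcA
miR-320-3p U tag: aaaagctgggttgagagggcgaT
miR-320-3p hairpin: aaaagctgggttgagagggcgaA
miR-27a-3p U tag: ttcacagtggctaagttccgT
miR-27a-3p hairpin: ttcacagtggctaagttccgC
miR-100-5p U tag: aacccgtagatccgaacttgtgT
miR-100-5p hairpin: aacccgtagatccgaacttgtgC
Counting from 1 at the 5′ end, the miR-125b-3p tag lay at bases 55 to 75 of the 87-base mir-125b-1 hairpin. The miR-152-3p tag lay at bases 53 to 74 of 85, and the miR-221-3p tag at bases 65 to 88 of 109. The miR-351-5p tag lay at bases 16 to 40 of 81.

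RefSeq mature sequences were matched to 54 of the 58 arms, and are shown for those whose families are compared below, with the seed in capitals.
miR-125b-1-3p: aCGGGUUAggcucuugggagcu
miR-152-3p: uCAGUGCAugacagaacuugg
miR-351-5p: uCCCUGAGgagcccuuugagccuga
miR-125a-5p: uCCCUGAGacccuuuaaccuguga
miR-125b-5p: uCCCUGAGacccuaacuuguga
miR-221-3p: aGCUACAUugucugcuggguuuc
miR-222-3p: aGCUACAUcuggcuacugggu
miR-27a-3p: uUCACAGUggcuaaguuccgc
miR-27b-3p: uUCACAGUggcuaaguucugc
miR-100-5p: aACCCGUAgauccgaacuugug
miR-99b-5p: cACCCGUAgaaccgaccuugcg
In the RefSeq assembly GRCr8, miR-125b-1-3p lies on the plus strand at chr8:50850090-50850111, within the span of the non-coding gene Lnc215. Mature miR-152-3p lies at chr10:82329435-82329455 (plus strand), within the span of Copz2, a coatomer subunit gene. On the X chromosome, miR-351-5p lies at chrX:137725157-137725181 (minus strand) and miR-221-3p at chrX:6023246-6023268 (plus strand), both within spans of non-coding genes. Whether these positions are exonic or intronic was not determined.

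U tags were far more common on 3p than on 5p arms, in every library. With arms summed, U tags made up 14.2%, 14.7% and 14.5% of 3p counts in high glucose replicates 1 to 3, and 11.99%, 12.1% and 12.6% in the controls. On 5p arms they made up 1.56%, 1.22% and 1.16% in high glucose and 1.12%, 1.03% and 1.05% in the controls. The ranges of the 2 sides lay far apart, with the 3p share 9.12 to 12.5 times the 5p share. The mean difference was 12.2 percentage points, with a range of 10.9 to 13.5 over the libraries, and the 3p share was higher in 6 of 6 (exact sign-flip permutation test, two-sided, p = 0.03125, the smallest that 6 libraries can give). With arms weighted equally, the median 3p arm exceeded the median 5p arm by 7.60 percentage points (same exact permutation test, p = 0.03125). The median of the arm means was 8.43% over the 22 3p arms and 0.577% over the 36 5p arms.

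The count of arms told the same difference. A mean U share of 10% or more was found for 9 of 22 3p arms and 4 of 36 5p arms. A mean under 1% was found for 2 of 22 3p arms and 21 of 36 5p arms, and all 7 arms with no U tag were 5p arms. These 7 were let-7a-5p, let-7f-5p, miR-20a-5p, miR-450a-5p, miR-450b-5p, miR-451-5p and miR-532-5p. Since the tables list no sequence read fewer than 2 times, these arms are given as listed at 0 and not as lacking the U. At the main ends of let-7a-5p, miR-20a-5p, miR-451-5p and miR-532-5p the next hairpin base is T, so an added U there would not be seen.

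An added U cannot be seen where the next base of the hairpin is itself T, because the longer read then matches the template. This held at the main end of 19 of the 58 arms, 15 of them 5p arms, and let-7a-5p was among them: its commonest tag stops before a templated T. For arms summed over several hairpins, the next base at the main end was read on a single hairpin. Among the 39 arms where an added U could be seen, U tags made up a mean of 12.5% of 3p and 2.87% of 5p counts over the 6 libraries. Counting only tags whose ends would show an added U, in all 58 arms, the means were 18.9% and 3.45%. The 3p excess was therefore present at ends that could show the U. The alignments held at most 1 difference per tag, so tails longer than a single U were in general not listed.

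U tags were set against the other bases that a last-base substitution can give. On 3p arms the mean share was 14.5% ± 0.250 (SD, n = 3) in high glucose and 12.2% ± 0.351 in the controls for U, against 6.23% and 5.96% for A. The same shares were 1.496% and 1.67% for C, and 0.260% and 0.623% for G. On 5p arms, A (3.17% and 3.33%) and C (2.91% and 1.92%) were both more common than U (1.31% and 1.07%). Over all 58 arms U exceeded the mean of C and G by 1.39 percentage points, and did so in 6 of 6 libraries (exact sign-flip permutation test, p = 0.03125, the smallest possible). G was the rare base, at 0.112% to 0.413% of counts. A (3.16% to 3.90%) was above U (2.25% to 3.12%) in all 6 libraries, and C was above U in high glucose replicate 2 (3.01% against 2.94%). Among arms with 500 or more counts in every library, U was above the mean of C and G by 0.251 percentage points (exact p = 0.125). There C alone, at means of 2.83% and 1.86% in high glucose and the controls, was above U at 1.48% and 1.58%. U exceeded both C and G in all 6 libraries in 17 of 22 3p arms and 10 of 36 5p arms. All these shares are over all counts, including ends where an added base would match the template. Counting for each base only ends that would show it, U had means of 6.47% in high glucose and 7.05% in the controls. By that measure, over all 58 arms, A had 4.09% and 4.23%, and C had 3.22% and 2.22%.

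Reads of T in place of another base were concentrated at the very end of the tags. At the last base, 15.5% to 25.7% of 3p counts whose hairpin base was not T read T, and 1.49% to 4.34% of such 5p counts. A single base further in, the range over all arms was 0.114% to 0.215%, against 3.21% to 9.05% at the last base. At that position it was 0.272% to 1.17% on 3p arms and 0.0644% to 0.164% on 5p arms. At 2 bases in, the range was 0.00901% to 0.0390% over all arms and 0.0235% to 0.346% on 3p arms.

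The base before the U differed widely in how often a U followed it. Of tags that ended after a G and could show an added U, 16.7% to 37.5% carried it, and such tags made up 51.1% to 59.5% of U tag counts in the 6 libraries. After a T the range was 1.47% to 2.72%, although T ended 50.3% to 75.8% of the exact tags that could have shown a U. The shares after A (4.92% to 10.8%) and C (4.84% to 11.0%) lay between these. A single arm, miR-125b-3p, gave 36.8% of the U counts that followed G, and miR-221-3p gave 75.8% of those that followed C. With each arm counted once, the median U share after G was 30.9% over 15 3p arms and 17.1% over 19 5p arms, and after T it was 2.26% over 13 3p arms and 0.236% over 32 5p arms. The 3p side was thus higher after the same base, and G was higher than T on the same side.

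A last-base substitution can be an added U or a change of the templated last base, and the tags do not tell these apart. The words added U are used here for either. On miR-21-5p, for example, the main U tag has the same start and length as the main exact tag. In 97.7% to 99.6% of U tag counts the tag without its last base was listed as an exact tag. In 90.5% to 95.2% the tag began at the RefSeq start. On 3p arms the U followed an end short of the RefSeq end in 40.1% to 67.3% of counts, the RefSeq end itself in 21.6% to 39.5%, and a longer end in 10.7% to 20.4%. On 5p arms, 52.4% to 58.3% of U counts in high glucose and 17.9% to 18.5% in the controls followed a shortened end. Exact 5p tags had the same order, with 30.8% to 42.2% shorter than RefSeq in high glucose and 13.97% to 14.7% in the controls. The part of these end positions in the glucose comparisons below was not tested.

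A few arms carried most of the U. miR-125b-3p alone gave 20.9% of U counts, 3 arms gave 47.9%, and 10 arms gave 75.2%.

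miR-125b-3p, the strand opposite the abundant miR-125b-5p, was the only one of the 58 arms in which U tags were the majority in all 6 libraries. They made up 75.5%, 77.3% and 72.4% of its counts in high glucose and 73.7%, 72.0% and 74.5% in the controls. The groups overlapped, and even control replicate 3, with 306 counts for the arm, had a 95% Wilson interval of 69.3% to 79.1%, which covers counting error alone. The tag printed above made up 81.0% of the arm's U counts, and its U stood where the hairpin has C, after an end 2 bases short of RefSeq. Whether the genome of this cell line holds T in place of that C, so that the T would be templated, was not tested. Without this arm the 3p excess was 9.07 percentage points. The tag was 95.5% to 97.3% of the sum of itself and the same tag without U. Over all start positions, tails read after the stretch gggag gave a finer picture. The templated C followed in 6.14% to 13.4% of the arm's counts, T in 71.6% to 76.4%, and A in 2.20% to 4.40%. A further T, in the form gggagTT, made up 1.96% to 5.61%, and the templated form gggagCT at most 3.69%. The form gggagTT could be seen because the hairpin's next base is T, and is not counted as a U tag here.

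The other arm of the same hairpin family was far lower. On miR-125b-5p, U tags made up 2.91%, 2.68% and 2.50% in high glucose and 2.54%, 1.85% and 1.56% in the controls. The same order held for miR-24, the other hairpin family with both arms deep enough. On miR-24-3p the U share was 12.7%, 5.69% and 7.85% in high glucose and 11.3%, 10.8% and 9.20% in the controls. On miR-24-5p it was 1.12%, 0% and 0.646% in high glucose and 0% in each control. The main end of miR-24-5p, unlike that of miR-24-3p, is followed by a templated T, so an added U there would not be seen. Counting only ends that would show an added U, the means were 10.1% for miR-24-3p and 0.531% for miR-24-5p.

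miR-152-3p, whose known targets include the DNA methyltransferase DNMT1, had the next highest share. It was 48.8%, 50.3% and 53.6% in high glucose and 41.9%, 38.8% and 45.5% in the controls. All 3 high glucose libraries lay above the controls, and the arm did not pass the test of the glucose comparison given below. The U followed the full RefSeq end, where the hairpin has G.

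miR-351-5p, a rodent miRNA of the X-linked miR-322 and miR-503 cluster, had the highest share of the 5p arms. It was 46.1%, 41.7% and 40.7% in high glucose and 32.6%, 33.7% and 42.2% in the controls, and the groups overlapped. It shares the seed CCCUGAG with miR-125a-5p and miR-125b-5p, whose mean U shares were 5.34% and 2.34%. All 3 carried their main U after a G that lies 1 base short of the RefSeq end, where each hairpin has A.

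miR-221-3p and miR-222-3p, neighbours on the X chromosome that repress the cell cycle inhibitor p27, share the seed GCUACAU and differed widely. On miR-221-3p the U share was 38.1%, 29.1% and 30.7% in high glucose and 26.3%, 24.6% and 37.2% in the controls, with the groups overlapping. On miR-222-3p it was 2.64%, 2.69% and 2.40%, and 2.62%, 2.76% and 3.77%. The main U tag of miR-221-3p extended the RefSeq end after C, whereas that of miR-222-3p followed an end 4 bases beyond RefSeq, after T.

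miR-27a-3p and miR-27b-3p, of the miR-23, miR-27 and miR-24 clusters, share the seed UCACAGU. miR-27a-3p had a U share of 17.5%, 15.7% and 13.9% in high glucose and 16.3%, 13.0% and 15.6% in the controls. miR-27b-3p had 7.03%, 7.30% and 7.25%, and 6.83%, 7.67% and 7.46%, below miR-27a-3p in every library. Their main U tags made up 32.2% to 38.7% and 20.9% to 30.8% of the sum with the tag without U. On miR-27a-3p added A was more common than U, at a mean of 43.9%.

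Of the let-7 family, miRNAs that repress growth and cell cycle genes and share the seed GAGGUAG, 6 arms were described, and let-7i-5p stood apart. Its U share was 7.40%, 4.95% and 7.15% in high glucose and 11.4%, 9.12% and 11.2% in the controls. The other 5 had means below 1%. At the main ends of let-7a-5p, let-7b-5p, let-7c-5p and let-7g-5p a U would match the template. Those of let-7i-5p and, on the let-7f-1 hairpin, let-7f-5p are followed by G. Counting only ends that would show an added U, the mean was 13.0% for let-7i-5p and 3.17% for let-7b-5p. By that measure it was 0.401% for let-7c-5p, 0.317% for let-7g-5p, and 0% for let-7a-5p and let-7f-5p. let-7f-5p was listed at 0 U tags in all 6 libraries, over 77300 counts. A U that matched the template of another let-7f hairpin would not be seen, and this was not checked.
let-7i-5p U tag: tgaggtagtagtttgtgctgttT
let-7i-5p hairpin: tgaggtagtagtttgtgctgttG
All 3 high glucose libraries of let-7i-5p lay below the controls, and the difference did not pass the test (log2 odds ratio -0.78, SE 0.22, adjusted p = 0.0908, edgeR quasi-likelihood test). The median of the arm means over the 6 arms was 0.0131%, against 2.65% over all 58.

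The remaining arms with high shares were mostly ends in G. miR-101b-3p had a U share of 25.1%, 13.9% and 13.0% in high glucose and 13.5%, 13.7% and 17.7% in the controls. On miR-218a-5p it was 16.8%, 19.2% and 14.3%, and 13.6%, 14.6% and 17.5%. miR-542-3p ranged from 7.77% to 22.5%, and miR-100-5p from 10.1% to 16.5%. In none of these 4 arms except miR-100-5p were the groups apart, and there the high glucose libraries were lower.

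Other families were fixed by name and are given by their range. The 8 arms of miR-10, miR-99, miR-100 and miR-125 ran from 0.00396% (miR-10a-5p) to 74.2%, with a median of 3.84%. The 5 arms of miR-23, miR-24 and miR-27 had a median of 7.26%. In the list of miR-17 clusters, miR-25-3p had 7.64% and miR-20a-5p no U tag. Families with a single arm described included miR-322-3p at 4.72%, miR-29a-3p at 4.28%, miR-26a-5p at 1.27% and miR-34c-5p at 0.711%. miR-26a is a known substrate of TUT4 in other cells. The miR-146 arms had 2.37% (miR-146a-5p) and 0.183% (miR-146b-5p). miR-451-5p, which is matured by Argonaute 2 without Dicer, had no U tag, but a U at its main end would match the template. The same held at the main ends of miR-20a-5p, miR-34c-5p, miR-146a-5p and miR-128-3p. No arm of miR-181, of 3 mirtrons, or of the retina, leukocyte or muscle lists reached the depth needed. Of arms typical of other cells, the 3 neuronal ones were miR-218a-5p, given above, miR-9a-5p with 9.26% and miR-128-3p with 0.0344%, and miR-122-5p of liver had 0.0183%. The arms nearest to the depth limit were miR-20a-5p, miR-24-5p and miR-185-5p inside it, with lowest counts of 118 to 157. Just outside lay miR-361-3p, miR-3559-5p and miR-151-3p with 93, 88 and 77, of which miR-151-3p had U shares of 11.7% to 21.1%.

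Whether the U share followed the glucose treatment was examined next. With all 58 arms summed, U tags made up 3.12%, 2.94% and 2.80% of counts in high glucose and 2.48%, 2.25% and 2.37% in the controls. The means were 2.95% ± 0.160 and 2.36% ± 0.117 (SD, n = 3 each), and the groups did not overlap (exact permutation test, two-sided, p = 0.1, the smallest that 3 against 3 can give). The design therefore cannot reach 0.05 for a single value. When each arm was given the same weight in every library, the means were 2.72% in both groups, with a difference of 0.00668 percentage points (exact permutation p = 1). In the 39 arms where an added U could be seen the order reversed, with 4.40% in high glucose and 5.56% in the controls. The median over arms was 2.58% in high glucose and 2.56% in the controls (exact permutation p = 1).

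The 3p excess was 12.6, 13.5 and 13.3 percentage points in high glucose and 10.9, 11.1 and 11.6 in the controls, a difference of 1.98 between the means (exact permutation p = 0.1, the smallest possible). Without miR-125b-3p the 3p share was 10.1% in high glucose and 10.4% in the controls, and the difference in the 3p excess became -0.481 percentage points. The ratio of the 3p to the 5p share averaged 11.2 in high glucose and 11.5 in the controls.

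Per arm, counts with and without the U were compared between conditions with edgeR's quasi-likelihood test, in which a log2 odds ratio above 0 means a higher U share in high glucose. Of 51 arms tested, 6 (11.8%) passed a Benjamini-Hochberg adjusted p of 0.05, 4 higher (7.84%) and 2 lower (3.92%) in high glucose. At an unadjusted p under 0.05 there were 10 arms. Of these 6, 5 were 5p arms, among 29 5p arms tested, and 1 was a 3p arm, among 22. The groups did not overlap in 15 of 58 arms (25.9%), 10 higher and 5 lower in high glucose. Among the 10 were miR-128-3p and let-7c-5p, with high glucose means of 0.0688% and 0.0206% and no U tag in the controls. Their control libraries held 207 to 349 and 1841 to 2170 counts of the arm, too few to show shares that small. The U tags of the called arms not printed above follow, again with the hairpin stretch and with capitals at the last base.
miR-99b-5p U tag: cacccgtagaaccgaccttgcgT
miR-99b-5p hairpin: cacccgtagaaccgaccttgcgG
miR-99a-5p U tag: aacccgtagatccgatcttgtgT
miR-99a-5p hairpin: aacccgtagatccgatcttgtgG
miR-224-5p U tag: caagtcactagtggttccgtttaT
miR-224-5p hairpin: caagtcactagtggttccgtttaG
miR-30a-5p U tag: tgtaaacatcctcgactggaagctT
miR-30a-5p hairpin: tgtaaacatcctcgactggaagctG
miR-486-5p U tag: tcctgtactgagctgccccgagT
miR-486-5p hairpin: tcctgtactgagctgccccgagC

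miR-99b-5p, encoded beside let-7e and miR-125a, fell in U share. It was 3.19%, 2.25% and 2.39% in high glucose and 12.4%, 10.2% and 10.5% in the controls. The groups lay far apart, with a log2 odds ratio of -2.22 (SE 0.21, edgeR adjusted p = 0.00194), and the call held under all 24 alternatives. The main U tag followed the RefSeq end in G. Of the sum of this tag and the same tag without U, it made up 14.4%, 13.0% and 9.52% in high glucose and 29.4%, 23.4% and 25.5% in the controls. The groups were apart by this measure too, while the tag without U itself made up 10.1% to 17.5% of the arm in high glucose and 29.01% to 32.2% in the controls.

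miR-99a-5p, of the same family, fell as well, and its U followed the same G. Its U share was 0.184% ± 0.105 in high glucose and 1.17% ± 0.052 in the controls (SD, n = 3 each; log2 odds ratio -2.81, SE 0.44, edgeR adjusted p = 0.0112). Against the tag without U, however, the U tag made up 27.2%, 23.8% and 9.93% in high glucose and 18.8%, 15.5% and 17.9% in the controls, and the groups overlapped. The tag without U made up 0.389% to 1.14% of the arm in high glucose and 5.14% to 6.29% in the controls. The tag without U was thus a smaller part of the arm in high glucose, by more than the spread between libraries. The part of this in the fall of the U share was not tested. Without any single control library the adjusted p of miR-99a-5p was 0.0518 to 0.0658. The third member, miR-100-5p, did not pass the test, with 10.1% to 13.7% in high glucose and 14.2% to 16.5% in the controls.

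miR-224-5p, encoded within the span of the GABA receptor subunit gene Gabre, rose. Its U share was 6.47%, 6.50% and 6.14% in high glucose and 2.56%, 2.71% and 2.71% in the controls, with a log2 odds ratio of 1.31 (SE 0.13, edgeR adjusted p = 0.00194). The replicates were tight and the groups apart, although the main U tag was counted 7, 11 and 11 times in the controls. It lost the call (adjusted p = 0.170) when sequences with fewer than 10 reads were left out.

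miR-30a-5p rose from 2.08%, 2.24% and 2.51% in the controls to 3.95%, 3.90% and 4.02% in high glucose (log2 odds ratio 0.83, edgeR adjusted p = 0.0118). Its U followed a T, 2 bases beyond the RefSeq end. The other miR-30 arm described, miR-30d-5p, had 2.30% to 2.77% in high glucose and 2.04% to 2.90% in the controls. The miR-30a-5p call was lost without control replicate 1 (adjusted p = 0.0698) or 2 (0.0638).

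miR-320-3p, whose precursor is made without Drosha, was the 3p arm that rose. Its U share was 32.0%, 32.5% and 27.8% in high glucose and 19.3%, 20.3% and 18.1% in the controls (log2 odds ratio 0.90, SE 0.14, edgeR adjusted p = 0.0112). Against the tag without U its main U tag made up 17.4% to 24.1% in high glucose and 10.2% to 12.8% in the controls, so the groups were apart here as well. That U tag held 31.6% of the arm's U counts. The tag without U made up 34.1% to 39.9% of the arm in high glucose and 45.2% to 48.3% in the controls. The part of this in the rise was not tested. Without any single control library the adjusted p was 0.0518 to 0.0658.

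miR-486-5p, typical of red blood cells, rose from 7.08%, 8.81% and 3.76% in the controls to 22.6%, 23.04% and 19.1% in high glucose (log2 odds ratio 2.03, SE 0.47, edgeR adjusted p = 0.0457). Its main U tag was 76.8% to 90.3% of the sum with the tag without U in high glucose and 28.6% to 50% in the controls. The tag without U made up 2.28% to 5.79% of the arm in high glucose and 8.81% to 9.91% in the controls. The part of this in the rise was not tested. The call rests on 10 to 17 counts of the main U tag per control library, and it was lost under 8 of 23 alternatives. The summed level of 3 erythroid miRNAs, miR-486 among them, was 687 to 914 CPM in high glucose and 3274 to 6230 in the controls. Its part in this result was not tested.

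Sequencing depth differed with the condition, and the calls were repeated with every library scaled to the counts expected at a depth of 114615. All 6 arms passed there too, together with let-7i-5p. No reads were drawn at random, so the scaled counts lack the noise of libraries that shallow. The repeat therefore cannot show whether the calls would hold at that depth. With arms summed, last-base C was higher in high glucose, as U was, at 2.73% ± 0.258 against 1.89% ± 0.196 (SD, n = 3 each). The groups did not overlap for C, so the rise with all arms summed was not particular to U. On 5p arms C was 2.91% in high glucose against 1.92%, and U was 1.31% against 1.07%. On 3p arms the groups overlapped for C, at 1.496% against 1.67%, whereas U was 14.5% against 12.2%. With all arms summed again, last-base A was 3.55% ± 0.374 against 3.63% ± 0.225, with the groups overlapping. Added G, by contrast, was lower in high glucose, at 0.120% ± 0.00754 of all counts against 0.337% ± 0.117 (SD, n = 3 each).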

How the data were processed

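The authors deposited a tag table per library, with a count for each sequence and hairpin, its alignment and any difference. The counts are raw and not normalised. Where a sequence matched several hairpins, its reads had been divided among them, from the values in the files, and 23.2% of U tag counts came from such sequences. Cutadapt 1.9.3 and Novoalign 3.02.12 are named in the submitters' processing notes, and the hairpin release is not given in the sources used here. The tables hold tags of 16 to 40 bases, with at most 1 difference, read at least 2 times.

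Arms were set by the tag's centre against the hairpin midpoint, and members of a hairpin family were summed. U shares were compared by exact sign-flip tests over the 6 libraries (3p against 5p) and exact permutations of 3 against 3 (glucose). Per arm, edgeR 4.0.16 was fitted to U and other counts of each library, in 51 arms, since 7 had no U tag. DESeq2 1.42.0, limma 3.58.1 (pseudocount 0.5), other filters, equal depth and left-out libraries were alternatives. Fits were tested on simulated data. Named arms were the 10 with most U counts, the 10 highest shares, the called arms, families with both arms, and the extremes of each family list. The members and lists were chosen with earlier results of these data known. Family partners, ends of the depth limit and arms with no U tag were also named, after their values were seen. RefSeq sequences are from GRCr8.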

Additional observations from a re-analysis of the deposited data

Results flagged for a closer look

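On predicted hairpins, which none of the comparisons used, tags with a last-base U were listed as well. They made up 4.37% ± 0.565 (SD, n = 3) of predicted-hairpin counts in high glucose and 0.551% ± 0.109 in the controls. The values were 4.59%, 4.79% and 3.72% in high glucose and 0.541%, 0.448% and 0.665% in the controls, where they rest on 62 to 96 counts. Since predicted hairpins have no checked template, these are given as values, and the difference was not tested.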

How the results depend on the processing

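The 3p excess kept its sign in all 20 alternatives tried, from 9.07 to 15.4 percentage points with arms summed and from 6.40 to 8.64 for medians. Leaving out any single library gave 11.9 to 12.4 and 7.36 to 7.72, and 1.32 to 1.46 for U above the mean of C and G, where 5 libraries can give no exact p below 0.0625. Replicate numbers did not pair the samples (correlations -0.70, -0.54 and -0.04 over 41 arms). With a replicate block, 12.2, 7.60 and 1.39 percentage points had an exact p of 0.25, the smallest possible, and edgeR called 8 arms, 5 higher and 3 lower. U exceeded the mean of C and G, though not C itself, by 0.251 (exact p = 0.125) with 500 counts in every library.

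The glucose difference with arms summed was -0.103 percentage points with 500 counts in every library, and, in alternatives chosen after seeing the data, -1.15 in arms and -0.573 at ends that can show the U. The median over arms reversed to -0.328 with 500 counts, -0.170 against exact tags, -0.392 in arms that can show the U, -0.133 with a second added base allowed, and spanned -0.218 to 0.161 without single libraries. It was larger and positive at 1.60 with 10 or more reads and 0.883 at a mean of 100 counts (exact p = 0.1 each), and 1.01 at ends that can show the U (exact p = 0.2). The glucose difference in the 3p excess was -0.481 without miR-125b-3p. Apart from the choice of arms or libraries, the cause was not tested.

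edgeR called 2 to 6 arms without single libraries, 1 to 4 higher and 1 to 2 lower, with 2, 2 and 3 called without control replicates 1, 2 and 3. Higher calls numbered 2 with 500 counts and 2 without miR-320-3p. miR-99a-5p lost its call without each control (adjusted p = 0.0518 to 0.0658). DESeq2 and limma each called the same 6 arms as edgeR. The lowest control count for an arm, 118, limits how small a share could be seen.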
